A study of Homo sapiens with 4 samples.

Results

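CDK8 binding was examined at 8 genes of the AP-1 transcription factor family (FOS, FOSB, FOSL1, FOSL2, JUN, JUNB, JUND and ATF3) in HCT116, a long-established line of human colorectal cancer cells. The members were chosen by position alone, as the peaks that overlapped the gene or about 20 kb on either side of it in GRCh37/hg19. They numbered 46 of 19862 peaks in normoxia, 54 of 21993 in hypoxia 1 and 45 of 14256 in hypoxia 2. Joining peaks that touch or overlap gave 53 regions in the 8 windows, of 28150 in the whole series. The study used chromatin immunoprecipitation and sequencing (ChIP-seq) with an antibody against CDK8. The groups were cells in normoxia (1 library) and cells given 24 h of hypoxia at 1% oxygen (2 libraries, labelled replicates 1 and 2 and called hypoxia 1 and hypoxia 2 here), with no genetic change named for either. An input library was not analysed here. Whether the pair of hypoxia precipitations used independent cultures is not in the labels, so their spread may be technical.

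AP-1 is a dimer of basic leucine zipper proteins. JUN, JUNB and JUND form dimers with each other or with FOS, FOSB, FOSL1 and FOSL2, whereas the FOS proteins need a JUN partner to bind DNA. Several of these genes, FOS and JUNB among them, are immediate early genes that serum, growth factors and stress induce within minutes through MAP kinase pathways. CDK8 is the kinase of a detachable module of Mediator, the complex that links transcription factors to RNA polymerase II, and it is known as a coregulator of serum-induced genes.

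CDK8 was listed at the outermost 5′ edge of 7 of the 8 genes in every library. The exception was ATF3, whose internal starts were not examined. How many other genes of the genome carry such a peak was not counted. Here the start side is a 3 kb interval, made of the kilobase that holds the gene's 5′ edge and 1 kb on each side of it, since the windows place that edge only to about 1 kb. To show the DNA of these start sides, 250 bases upstream of the annotated start are printed for 6 of the 7 genes, from RefSeq (GRCh38.p14, a later build than that of the peaks), read 5′ to 3′ towards the gene. The table of promoters matched 7 of the 8 genes, and FOSL1 was not among them. Capitals mark the half-site TGACG on either strand, the cAMP response element TGACGTCA, which contains it, and the related element TGACATCA.
FOS, chr14:75278578-75278827, plus strand: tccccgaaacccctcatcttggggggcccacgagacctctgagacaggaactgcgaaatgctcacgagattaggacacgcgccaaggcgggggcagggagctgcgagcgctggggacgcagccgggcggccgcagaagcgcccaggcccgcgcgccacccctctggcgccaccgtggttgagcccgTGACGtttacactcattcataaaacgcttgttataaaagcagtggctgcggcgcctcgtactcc
FOSB, chr19:45467746-45467995, plus strand: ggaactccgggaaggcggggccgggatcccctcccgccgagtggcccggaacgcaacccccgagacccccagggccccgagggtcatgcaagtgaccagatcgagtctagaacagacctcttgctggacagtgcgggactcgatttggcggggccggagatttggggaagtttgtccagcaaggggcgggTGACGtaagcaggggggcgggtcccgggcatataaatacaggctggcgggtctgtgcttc
FOSL2, chr2:28392608-28392857, plus strand: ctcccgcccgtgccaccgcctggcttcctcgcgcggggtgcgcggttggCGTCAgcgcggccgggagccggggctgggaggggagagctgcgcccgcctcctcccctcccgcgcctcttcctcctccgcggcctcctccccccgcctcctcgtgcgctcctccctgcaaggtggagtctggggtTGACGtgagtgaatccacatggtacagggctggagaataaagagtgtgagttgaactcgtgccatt
JUN, chr1:58784048-58784297, minus strand: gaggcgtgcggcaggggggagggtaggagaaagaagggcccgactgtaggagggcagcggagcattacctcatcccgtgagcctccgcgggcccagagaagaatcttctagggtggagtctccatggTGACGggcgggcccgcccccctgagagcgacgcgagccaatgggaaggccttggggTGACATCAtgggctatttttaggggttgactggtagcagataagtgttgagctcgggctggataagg
JUNB, chr19:12791236-12791485, plus strand: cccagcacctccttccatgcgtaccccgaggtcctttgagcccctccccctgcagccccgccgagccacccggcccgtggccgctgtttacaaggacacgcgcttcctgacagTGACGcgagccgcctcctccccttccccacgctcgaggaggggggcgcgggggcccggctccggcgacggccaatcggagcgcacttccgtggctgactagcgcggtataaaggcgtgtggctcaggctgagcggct
JUND, chr19:18281623-18281872, minus strand: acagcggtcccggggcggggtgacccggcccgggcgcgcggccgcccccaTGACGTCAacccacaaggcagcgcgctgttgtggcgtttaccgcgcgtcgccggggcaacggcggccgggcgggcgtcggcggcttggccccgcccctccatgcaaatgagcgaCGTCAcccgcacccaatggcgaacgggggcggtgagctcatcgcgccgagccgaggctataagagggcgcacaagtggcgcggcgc

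The half-site TGACG was found in these 6 of the 7 matched genes, neither listed ATF3 promoter holding it. It was present in 24.6% of 35116 promoters of the same length (300 bases, of which 50 follow the start). The 250 upstream bases of the 6 genes were 62.0% (JUN) to 74.8% (JUND) G or C. Those of the listed ATF3 promoters, without the half-site, were 49.2% and 44.8%. The median over all promoters was 58.0%, and the part of base content in the matches was not tested. The half-site and TGACATCA were chosen for searching after the sequences had been read. In FOS the half-site began 64 bases before the start, in FOSB 60 and in FOSL2 66. JUND was the only one of the 7 matched genes with a full TGACGTCA, 200 bases before its start, a motif found in 1.85% of all promoters. JUN held TGACATCA 67 bases before its start, and so did the outer promoter of ATF3, 123 bases before its start, against 2.61% of all promoters. The AP-1 consensus TGAGTCA, searched on both strands, was found in FOSL2 alone, 4 bases after the start, against 4.95% of all promoters. A core of the hypoxia response element, ACGTG or GCGTG on either strand, was present in 5 of the 7 genes and in 48.4% of all promoters. No CArG box, the core of the serum response element, lay in these stretches of 300 bases, against 1.29% of all promoters. Sequence farther upstream was not searched, so the genes may hold one there. Matches describe letters in these stretches and say nothing of binding.

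**Figure D1:**
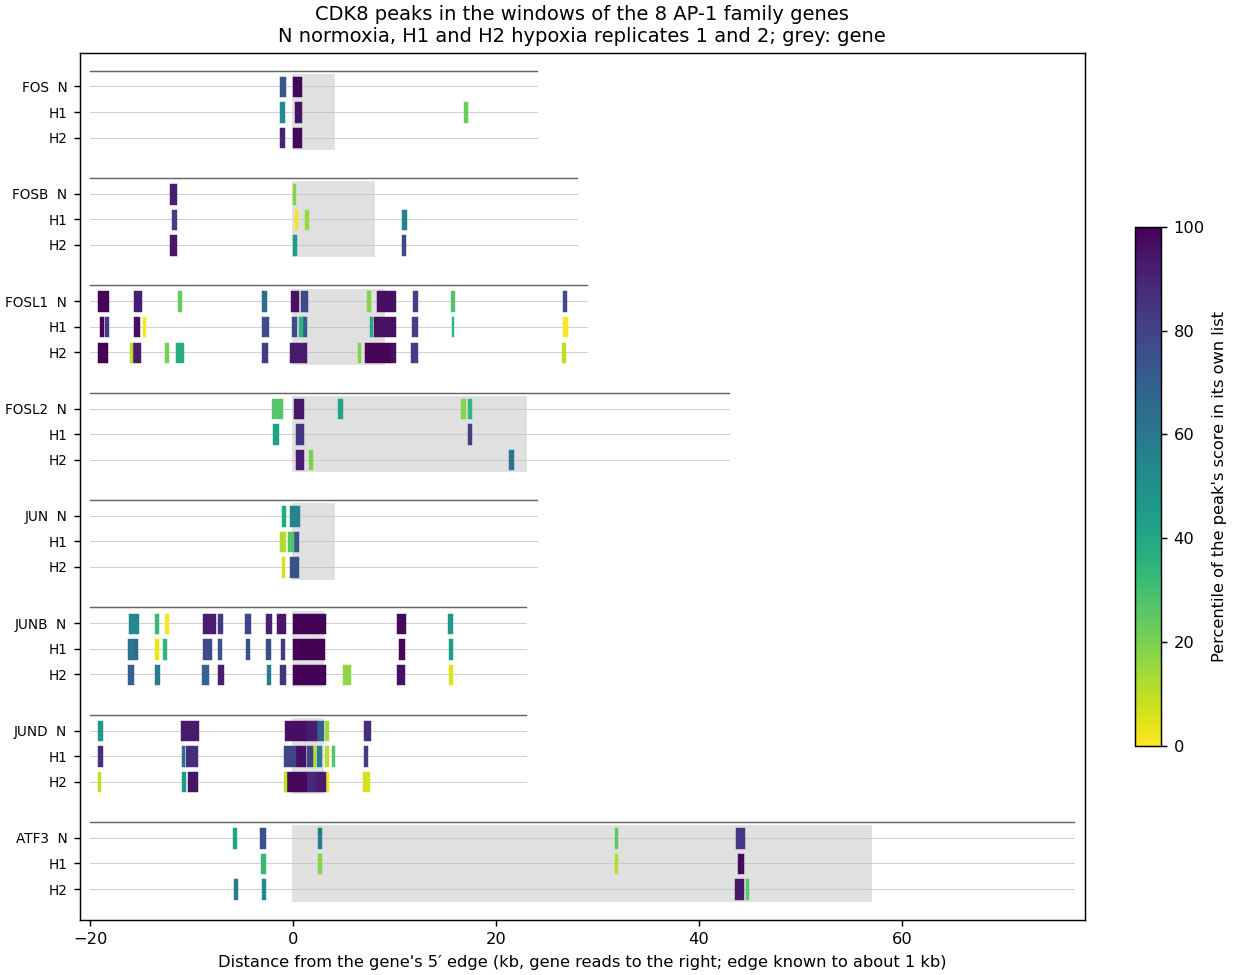
CDK8 peaks by distance from each gene's 5′ edge in kb, with 1 lane per library and the colour giving the percentile of the peak's score in its own list. Peaks lie at the left edge of the grey gene in 7 of the 8 windows, while the highest-ranked ATF3 peaks lie about 44 kb inside the gene.

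Peaks carry the authors' score, whose scale is not stated, so each was ranked inside its own list and given a percentile, with 100 for the best peak. Read depth is unknown, and a rank does not measure an amount of binding. The lists differ in length, so a difference in percentile between libraries is a difference in rank and shows no change in CDK8. FOS, the partner of JUN in the classical dimer, had its highest-ranked peaks at its start. The region on chromosome 14 from 75744972 to 75745816 (845 bp, hg19) stood at percentile 98.8 in normoxia, 95.1 in hypoxia 1 and 98.0 in hypoxia 2. Normoxia stood 2.29 points above the mean of the hypoxia libraries, less than the 2.87 points between the latter. A companion region about 1 kb outside the edge (75743676 to 75744206) stood at percentiles 72.9, 53.1 and 90.6 in the same order, so the hypoxia libraries lay on either side of normoxia. The only other FOS region, about 17 kb downstream of the edge, was in hypoxia 1 alone at percentile 23.0. No other protein-coding gene lies within 20 kb of FOS, FOSL2 or JUN in the RefSeq table.

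FOSB, a FOS paralogue known for its stable splice form in neurons, had a weak start-side signal. Its region on chromosome 19 from 45970978 to 45971347 stood at percentile 18.3 in normoxia, 2.02 in hypoxia 1 and 46.4 in hypoxia 2. The hypoxia 1 peak was close to the bottom of its list, and FOSB was the start side that dropped out with shorter lists. A further start-side peak (45972159 to 45972426) was in hypoxia 1 alone, at percentile 15.2. The leading region of the window lay about 12 kb upstream (45958857 to 45959490), at percentiles 91.6, 81.8 and 94.0. It lies on the side of ERCC1, a DNA repair gene, and the lists do not say which gene such a peak serves.

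The FOSB window also held the only region of the 53 found in both hypoxia lists but missing from normoxia. It spanned 45981715 to 45982088, about 11 kb from the 5′ edge and beyond the gene's 3′ end. On that side lie the tRNA gene TRU-TCA1-1 and RTN2, and overlap with either was not tested. The region's percentiles were 55.3 in hypoxia 1 and 78.3 in hypoxia 2. In the whole series this pattern made up 3.18% of regions, so 1 of 53 (1.89%, Wilson 95% interval 0.334 to 9.94) was not distinguishable from the background at this number of regions.

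FOSL1 encodes FRA-1, a FOS-related protein often abundant in invasive carcinoma cells. Its window was among the richest, with 11 peaks in normoxia, 13 in hypoxia 1 and 12 in hypoxia 2. The start-side region on chromosome 11 (65666640 to 65668336, 1697 bp) stood at percentiles 96.0, 76.6 and 92.9. A broader region across the 3′ edge of the gene (65657907 to 65660932, 3026 bp) ranked at 96.1, 95.9 and 98.8. It reached beyond the gene on the side where CCDC85B is the next gene in the reference, and overlap with that gene was not tested. The best region of the window lay about 19 kb upstream (65686269 to 65687234), at 99.0, 99.1 and 99.6, on the side where the reference table places C11orf68 and DRAP1, the latter a corepressor of general transcription. With 6 other protein-coding genes within 20 kb, most FOSL1 peaks have other candidate genes.

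A region at the far downstream end of the FOSL1 window showed the largest rank difference between conditions of the 30 regions listed in all 3 libraries. It spanned 65640970 to 65641461, about 27 kb from the 5′ edge, and stood at percentile 77.6 in normoxia, 0.0705 in hypoxia 1 and 10.0 in hypoxia 2. Normoxia lay 72.5 points above the hypoxia mean, against 9.96 points between the hypoxia libraries. Elsewhere among the 30 regions the hypoxia libraries themselves differed by up to 77.0 points, at a JUND region (18411805 to 18412263). With a single normoxia library the difference in rank cannot be tested. Both hypoxia peaks were close to the bottom of their lists. EFEMP2, CTSW, FIBP and CCDC85B lie on that side of FOSL1.

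FOSL2, which encodes FRA-2, had a start-side region on chromosome 2 (28615100 to 28615980, 881 bp) at percentiles 93.4, 85.0 and 92.4. It was the only FOSL2 region in all 3 libraries. The 6 others were listed in 1 or 2 libraries, the lowest share of regions in all 3 of any window, 1 of 7. A wide peak about 2 kb upstream (28612926 to 28613958) was in normoxia and hypoxia 1 at percentiles 26.7 and 44.0. Inside the gene, a region about 17 kb from the edge (28632254 to 28632570) was listed in the same pair at 34.3 and 81.4.

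The only 2 regions of normoxia alone in the 8 windows also lay inside FOSL2. They spanned 28619419 to 28619786 (percentile 41.2) and 28631583 to 28631929 (percentile 18.0). Normoxia alone made up 13.2% of all regions of the series, and 3.77% of the regions here (2 of 53, Wilson interval 1.04 to 12.8). Hypoxia replicate 2 alone listed 2 others, at 28616603 to 28616828 and 28636246 to 28636685, at percentiles 20.0 and 61.7. Inside FOSL2 beyond the start side, normoxia thus listed 3 regions and each hypoxia library 1, and the 1 was not the same region.

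JUN, the founding member of its subfamily and a target of the JNK kinases, carried CDK8 only around its start. The region over the 5′ edge on chromosome 1 (59249457 to 59250451, 995 bp) stood at percentile 55.0 in normoxia, 73.3 in hypoxia 1 and 75.2 in hypoxia 2. Both hypoxia libraries stood at higher percentiles, with the normoxia value 19.2 points from their mean and 1.87 points between them. The neighbouring region about 1 kb outside the edge (59250766 to 59251291) had the opposite order, at 39.7 in normoxia, 13.2 in hypoxia 1 and 7.18 in hypoxia 2. There normoxia was 29.6 points above the hypoxia mean, against 5.97 points between the hypoxia libraries. With a single normoxia library neither difference in rank can be tested. Together with FOSB, JUN had the lowest-ranked start-side peaks of the 7 genes in every library.

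JUNB, which encodes a JUN protein often opposed to JUN in growth control, had the highest-ranked start-side CDK8 signal of the family, in a region that spanned its gene. A region of 3170 bp on chromosome 19 (12901967 to 12905136) stood at percentiles 99.5, 99.7 and 99.2. The normoxia list cut it into 2 peaks and each hypoxia list gave 1. Peaks covered 97.8% of the 3 kb that hold the gene in normoxia and 100% in each hypoxia library. The RefSeq table gives JUNB a length of 1830 bp, less than the width of the region.

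The JUNB window held 12 regions, 9 of them in all 3 libraries, and 7 lay outside the 5′ edge beyond the start side. At about 1 kb outside the edge the companion region (12900400 to 12901180) stood at 93.9, 82.9 and 85.4. On the far side, about 11 kb from the edge, a region from 12912199 to 12913014 ranked at 97.9, 98.1 and 95.4, where PRDX2, a peroxide-reducing enzyme, is the next gene in the reference. The upstream regions fall on the side of HOOK2, whose annotated span overlaps JUNB. At 12893071 to 12894290, about 8 kb upstream, normoxia ranked at 92.5, above both hypoxia libraries (77.5 and 68.3). At 12885733 to 12886689, about 16 kb upstream, normoxia ranked below them, at 53.1 against 65.7 and 68.4.

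JUND, the member known for constitutive rather than induced expression, was likewise covered along its length. The region across its start (chromosome 19, 18390729 to 18393939, 3211 bp) stood at percentiles 96.2 in normoxia, 95.8 in hypoxia 1 and 98.1 in hypoxia 2. It was cut into 2, 4 and 3 peaks in these lists. Peaks covered 93.6%, 73.3% and 93.5% of the 3 kb of the gene. A region about 10 kb upstream (18402393 to 18403996, 1604 bp) was in all 3 libraries at 93.4, 87.0 and 95.2. Elsewhere in the window the hypoxia libraries disagreed. At 18411805 to 18412263 they stood at 86.1 and 9.10, with normoxia at 46.1, and at 18385449 to 18386077 at 82.4 and 6.50, with normoxia at 87.4.

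ATF3, a stress-induced partner of JUN proteins that is transcribed from alternative promoters, differed from the other 7 genes at its outermost 5′ edge. No peak of any list lay in the 3 kb start side there. With 5 kb in place of 1 kb on each side every gene, ATF3 included, had a peak in all 3 libraries. The leading ATF3 region lay about 44 kb inside the gene on chromosome 1 (212781598 to 212782394, 797 bp). Whether an internal promoter lies there was not tested. The region stood at percentile 83.8 in normoxia, 98.0 in hypoxia 1 and 93.7 in hypoxia 2. Both hypoxia libraries stood at higher percentiles, by 12.1 points on average, with 4.33 points between them. The authors' scores, which are not comparable between lists, were 36.3, 149.7 and 45.2.

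The other ATF3 regions did not follow it. About 3 kb outside the edge, the region from 212734771 to 212735223 stood at 75.7 in normoxia, 33.1 in hypoxia 1 and 52.0 in hypoxia 2. Just beyond the start side, 212740445 to 212740780 was listed in normoxia (57.8) and hypoxia 1 (18.4) only, as was 212769704 to 212769964 (25.7 and 11.1), about 32 kb inside. About 6 kb outside the edge, 212732120 to 212732442 was in normoxia (41.3) and hypoxia 2 (58.6). Hypoxia 2 alone listed a peak about 45 kb inside (percentile 26.1). As at JUN, normoxia stood below both hypoxia libraries at one of the 2 regions shared by all libraries in this window and above both at the other.

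**Figure D2:**
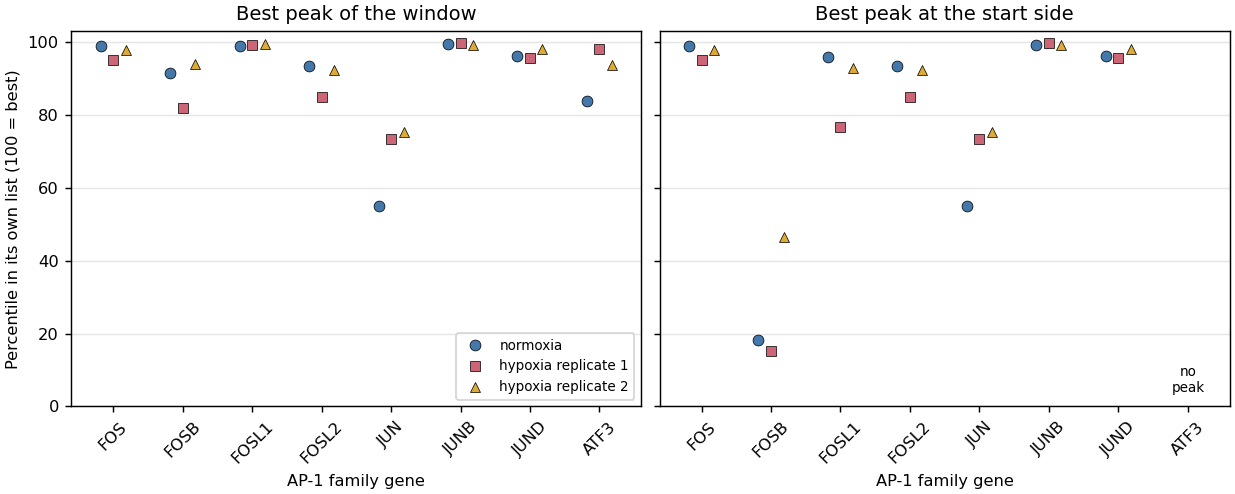
Percentile of the best peak of each gene's window (left) and of its start side (right) in each of the 3 libraries. JUNB, JUND and FOS stay above percentile 95 at the start side in every library, FOSB stays below 50, and ATF3 has no start-side peak.

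Ordered by their lowest start-side percentile over the 3 libraries, the genes ran JUNB (99.2), JUND (95.8), FOS (95.1), FOSL2 (85.0), FOSL1 (76.6), JUN (55.0) and FOSB (15.2). JUND and FOS do not differ beyond their spread, since normoxia ranked FOS higher and hypoxia 2 ranked them within 0.1 of each other. FOSL2 and FOSL1 also overlapped, at 85.0 to 93.4 against 76.6 to 96.0. JUNB was above JUND and FOS in every library, and FOSB below JUN in every library.

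All 8 windows held peaks of all 3 libraries and at least 1 region in all 3. Of 64871 tiles of 46 kb, the median window length, laid end to end over every chromosome, 10.4% held such a region. A peak was present in 17.3% of tiles in normoxia, 18.1% in hypoxia 1 and 13.9% in hypoxia 2. The tiles include long gene-poor stretches and the windows were placed on genes, and windows on other genes were not compared. Within the family the counts were uneven. JUNB (12, 12 and 10 peaks), FOSL1 and JUND (7, 11 and 9) had more peaks in each library than FOS (2, 3 and 2), FOSB (2, 4 and 3) or JUN (2, 4 and 2). The 12 peaks of JUNB in normoxia were reached by 0.0617% of tiles, and the 2 of FOS and of JUN by 6.60%. FOSL1 and JUNB have 6 and 4 protein-coding neighbours within 20 kb, whereas JUND has 1 and FOSB 2, and the part of neighbours in the counts was not tested.

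By position, 12 of the 53 regions touched a start side, 11 overlapped a gene elsewhere, 20 lay upstream and 10 downstream. Of the start-side regions, 10 of 12 were in all 3 libraries, against 3 of 11 in gene bodies, 12 of 20 upstream and 5 of 10 downstream. The gene-body regions came from 4 genes, with 4 each at FOSL2 and ATF3, so position and gene cannot be told apart here. Shares by position over the whole series were not counted. Start-side regions had a median width of 813 bp, against 347 bp in gene bodies. Of the 53 regions, 3 were wider than 2 kb, at JUNB, at JUND and across the 3′ edge of FOSL1. In the whole series 0.806% of regions reach that width.

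**Figure D3:**
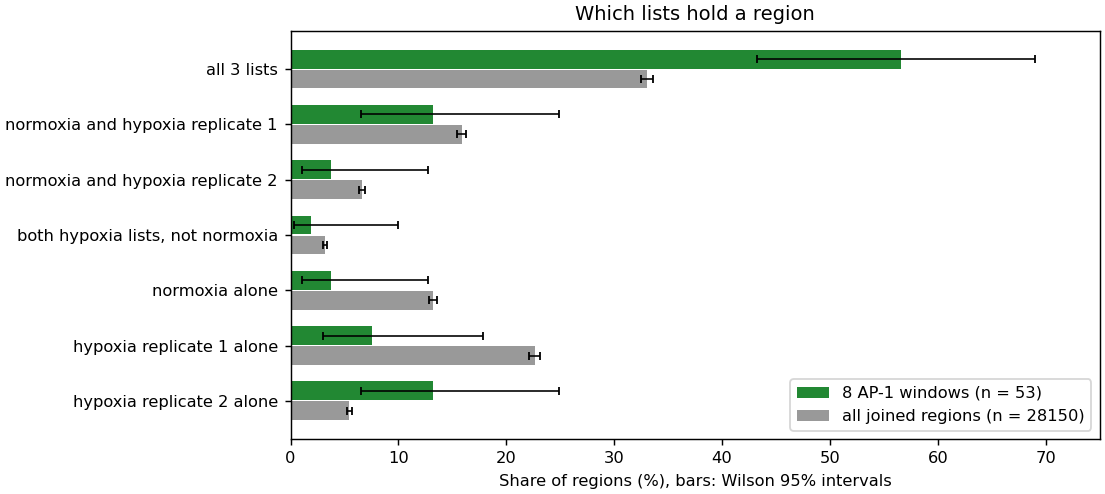
Share of regions, in percent, that each combination of lists holds, for the 53 regions of the AP-1 windows and all 28150 regions, with Wilson 95% intervals. The AP-1 windows hold 56.6% of their regions in all 3 lists, against 33.0% overall. JUNB, FOSL1 and JUND hold 9, 7 and 5 of these 30 shared regions.

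The question of the series is how hypoxia changes CDK8 binding, and most regions at these genes were listed under both conditions. Of the 53 regions, 30 were in all 3 libraries (56.6%, Wilson interval 43.3 to 69.0), against 33.0% of all regions. The interval covers counting error only, and regions of a window are not independent. The 30 came unevenly from the windows, with 9 of 12 regions at JUNB, 7 of 13 at FOSL1 and 5 of 6 at JUND. FOS gave 2 of 3, FOSB 2 of 4 and JUN 2 of 2. ATF3 gave 2 of 6 and FOSL2 1 of 7. Regions of normoxia and hypoxia 1 numbered 7 (13.2%, against 15.9% in the series), and those of normoxia and hypoxia 2 numbered 2 (3.77%, against 6.65%). Normoxia alone had 2 (3.77%, against 13.2%), hypoxia 1 alone 4 (7.55%, against 22.6%) and hypoxia 2 alone 7 (13.2%, against 5.46%). The remaining one was the FOSB region of both hypoxia libraries. Of the patterns with a single list, hypoxia 2 thus had the most regions here and the fewest in the series. Without hypoxia 1, 8 regions were in the remaining hypoxia library but missing from normoxia and 9 were of normoxia alone. Without hypoxia 2 these counts were 6 and 5. No p-value is given, since the labels of 1 normoxia and 2 hypoxia libraries cannot give a permutation p below 0.333.

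**Figure D4:**
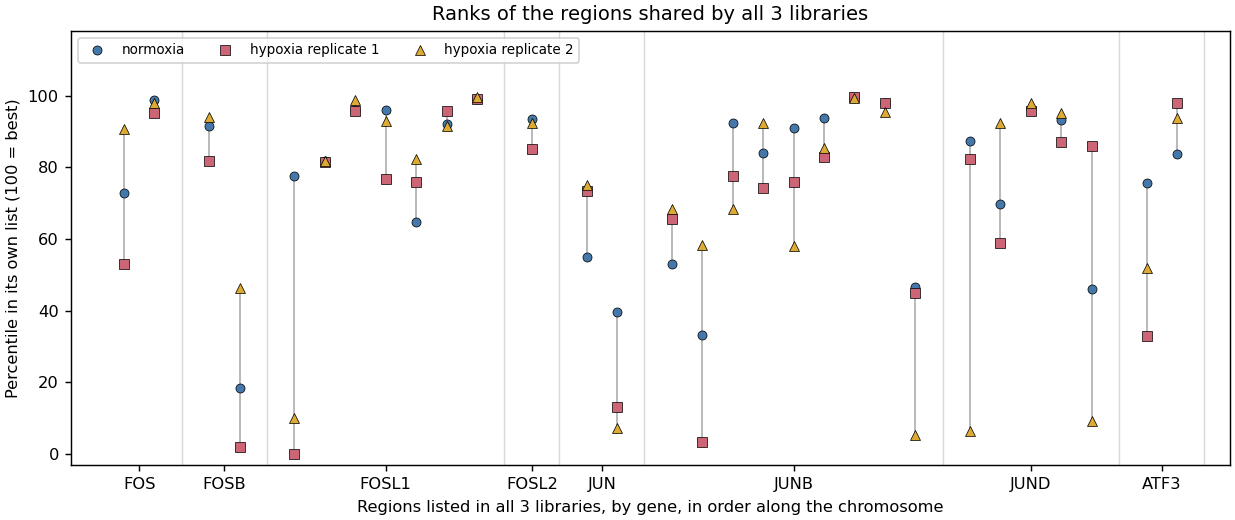
Percentile in its own list of each of the 30 regions listed in all 3 libraries, grouped by gene, with a grey line joining the values of a region. The symbols nearly coincide at the leading JUNB, JUND and FOSL1 regions, and spread widely at low-ranked regions of JUND, JUNB and FOSL1.

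Ranks of the 30 shared regions gave no common direction. Normoxia ranked above both hypoxia libraries in 12 (40.0%), where 34.7% of the 9295 regions shared in the whole series did. It ranked below both in 5 (16.7%), against 23.6%, and between them in 13. The 5 were the JUN start, the internal ATF3 region, the far upstream region of JUNB and 2 upstream regions of FOSL1. Of those, the FOSL1 region at 65670510 to 65671083 stood at 64.6 against 76.0 and 82.4, and the other was the region about 19 kb upstream given above. The hypoxia libraries differed by a median of 7.79 points at these regions, and normoxia lay a median of 5.24 points from their mean, against 17.6 and 11.8 points over all shared regions. The lowest of a region's 3 percentiles had a median of 71.3 here and 45.6 over all shared regions, and its part in the smaller differences was not tested.

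**Figure D5:**
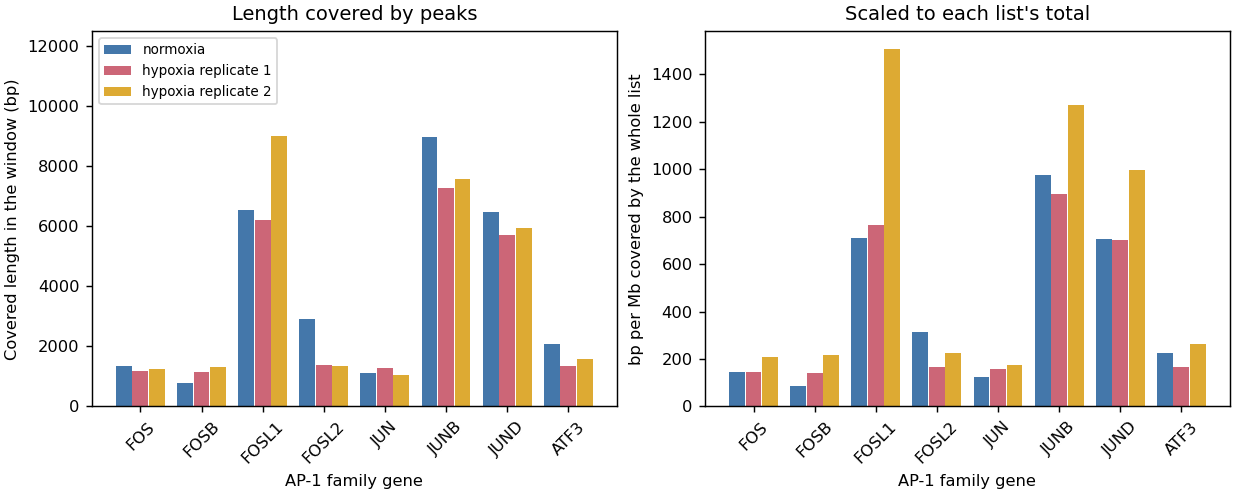
Length covered by CDK8 peaks in each window, in bp (left) and per Mb covered by the whole list (right), for the 3 libraries. FOSL1, JUNB and JUND carry the longest coverage in each library, and the place of normoxia among the libraries changes with the scaling.

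The length covered by peaks summed to 30257 bp in normoxia, 25536 bp in hypoxia 1 and 29030 bp in hypoxia 2 over the 8 windows. Normoxia covered more than both hypoxia libraries in 5 windows (FOS, FOSL2, JUNB, JUND and ATF3), lay between them in 2 (FOSL1 and JUN) and below both in FOSB. The lists differ in total coverage, at 9.20, 8.12 and 5.97 Mb. Scaled to these totals, normoxia was above both at FOSL2 alone, between them at 4 genes and below both at 3 (FOSB, FOSL1 and JUN). FOSL2 covered 2906 bp in normoxia against 1365 and 1337 bp, which is 315.8 bp per Mb of the list against 168.1 and 223.9. FOSB covered 796 bp in normoxia against 1156 and 1305 bp, or 86.5 bp per Mb against 142.4 and 218.6. These were the only genes where normoxia lay on the same side of both hypoxia libraries under both scales.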

How the data were processed

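The 3 deposited peak lists give a position, a MACS peak name and the authors' score for each peak, on GRCh37/hg19 per the submitters' processing notes. These notes name MACS2 2.0.9, Bowtie 0.12.7, CASAVA 1.8.2 and FastQC with no role. The file names mark each list as merged, and the calling threshold is not given in the sources used here. Peak lists give no read depth and no check of the cell line.

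Peaks overlapping a window by at least 1 bp were taken, peaks of any list that touched or overlapped were merged into regions, and scores were ranked within each list. Gene edges are the window edges moved in by 20 kb. Strands came from the RefSeq promoter table, and from textbook knowledge for FOSL1. Starts were converted to count from 1. All 8 genes were named, with each one's top region, regions wider than 2 kb, those of the start side, and those of normoxia alone or of both hypoxia libraries; other regions were named after their values were seen. The members and lists were chosen with earlier results of these data known. The joining was tested on simulated data. Other settings tried were a 10 kb flank, a wider start side, joining within 500 bp, the top 50% of every list by score, lists of equal size and leaving out either hypoxia library. Python 3.11.15, numpy 2.4.6, pandas 2.3.3, scipy 1.17.1 and matplotlib 3.10.9 were used.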

Additional observations from a re-analysis of the deposited data

How the results depend on the processing

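Keeping the top 50% of every list left fewer peaks by construction, namely 30, 33 and 29 covering 24705, 19771 and 23922 bp for normoxia and hypoxia replicates 1 and 2. A flank of about 10 kb left 24266, 20406 and 23297 bp, and equal list sizes (14256 peaks) left normoxia with 27138 bp and the first hypoxia library with 20999 bp. Regions in all 3 libraries numbered 22, 25, 22 and 27 with the top 50%, equal lists, the shorter flank and joining within 500 bp, and 33 or 40 were in both remaining libraries without hypoxia replicate 1 or 2. The genes with a start-side peak in every list stayed at 6 to 8. Regions of hypoxia and not normoxia numbered 1 with both hypoxia libraries, 8 without hypoxia replicate 1 and 6 when the other was left out, and those of normoxia alone 2, 9 and 5, so both counts rest on having both hypoxia libraries. Joining within 500 bp left 1 region of normoxia alone. The shorter flank, added for ranks after seeing the data, removed the upstream peaks that led 2 windows: the best FOSB percentiles became 18.3, 55.3 and 78.3, and those of FOSL1 96.1, 95.9 and 98.8. Leaving out a library gives no new value for the lists that remain, so peak counts and covered lengths have none. No paired analysis was possible with 1 normoxia library against 2 hypoxia libraries.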
